A study of Mus musculus with 12 samples.

Results

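The CUL3 ubiquitin ligases read their substrates through adaptor proteins that carry a BTB domain, and the RNA levels of the BTB and Kelch adaptor genes were compared in the mouse cell line GC-2. Members were the genes whose symbol starts with Klhl, Kbtbd, Kctd or Btbd followed by a number, together with Spop and Spopl, and 2 Kctd genes were left out by the rule. Of 69 such symbols among the 24770 genes listed, 45 were kept because 3 or more of the 12 libraries held them at 1 FPKM or above. FPKM is the number of fragments scaled by transcript length and library size, so levels of different genes can be set side by side. The 45 comprised 19 of 30 Klhl genes, 12 of 19 Kctd genes, 9 of 11 Btbd genes, 3 of 7 Kbtbd genes and both Spop genes.

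The libraries formed 4 groups of 3, which the series text calls biological replicates. DMSO normoxia received the solvent DMSO in ordinary oxygen, DMSO hypoxia the solvent at 1% O2, MLN4924 normoxia the inhibitor at 1 µM in ordinary oxygen, and MLN4924 hypoxia the inhibitor at 1% O2, each for 24 h. All groups were wild-type by label and came from a single cell line, so no replicate stands for an animal. MLN4924 inhibits the NEDD8-activating enzyme, and the series title concerns its effect on cell death in hypoxia. The labels describe the cells as type B spermatogonia, but most of the listed germ cell markers were near 0. Of 13 spermatogonial markers 8 were listed and 6 of these stayed below 1 FPKM in every library. Kit reached at most 0.04 FPKM and Ddx4 at most 0.06 FPKM, and the summed level of 12.1 to 26.1 FPKM came mostly from Uchl1. Gfra1 of the same list was not near 0, with a mean of 5.58 FPKM in DMSO normoxia and at most 6.23. Sertoli cell markers summed to between 6.46 and 23.1 FPKM per library, and Leydig cell markers to between 1.61 and 12.1 FPKM. Fibroblast and peritubular markers summed to between 1077 and 1411 FPKM per library, nearly all of it Col1a1, Col1a2 and Acta2, while Thy1 of the same list stayed at or below 0.11 FPKM and Pdgfra at or below 11.9 FPKM. Acta2, the smooth muscle actin gene, averaged 52.5 ± 2.30 FPKM (SD, n = 3) in DMSO normoxia, 27.9 ± 3.80 in DMSO hypoxia, 371 ± 8.38 in MLN4924 normoxia and 406 ± 15.8 in MLN4924 hypoxia. It was far higher in all libraries with the inhibitor, and its part in the MLN4924 results was not tested. The line is called GC-2 here without a cell type.

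A CUL3 ligase is built from the CUL3 scaffold, the RING protein RBX1 and a BTB protein that takes the place of the substrate receptor. The BTB domain binds CUL3, and a second domain, such as the Kelch propeller of KLHL and KBTBD proteins or the MATH domain of SPOP, holds the substrate. Attachment of NEDD8 to CUL3 activates the ligase, and MLN4924 blocks this step at the protein level. Not every BTB protein is an established CUL3 adaptor, and some KCTD proteins are known for other functions.

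DMSO hypoxia replicate 1 stood apart. It held 633597 FPKM in total against 530452 to 557779 in the other libraries, and 11180 genes reached 1 FPKM in it against 11440 to 11644. Its mean rank correlation with its group was 0.926, and its deviation from the other replicates followed transcript length across 10838 tested genes (Spearman rho -0.443, against -0.0547 to 0.0299 in the other libraries). Across the 44 members with a length the same rho was -0.124. Btbd7 was listed at 0.00 FPKM in it against 2.85 and 3.49 in the other DMSO hypoxia libraries, and Klhl11 at 2.70 FPKM against 10.12 and 10.16. Results of both comparisons that use this library are therefore also given without it for most called members and most counts. The changes of Enc1, Hdac1 and Top1, genes outside the members, are given with all libraries only. Whether length or RNA quality contributes to them was not tested.

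Before any treatment effect, the adaptors differed widely in level. All 45 members were at 1 FPKM or more in each DMSO normoxia library, and 38 were so in all 12 libraries. The mean over 12 libraries was at least 10 FPKM for 14 members and lower for 31. The highest mean was 60.2 FPKM for Kctd17, which directs degradation of trichoplein during cilium formation, followed by 50.02 FPKM for Spop, an adaptor for BRD proteins and GLI factors, and 39.3 FPKM for Kctd5, an adaptor for G protein beta-gamma subunits. Btbd1 followed with 26.7 FPKM and Klhl9 with 24.2 FPKM. These 5 genes held between 40.7% and 47.7% of the members' summed FPKM in a library.

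**Figure D1:**
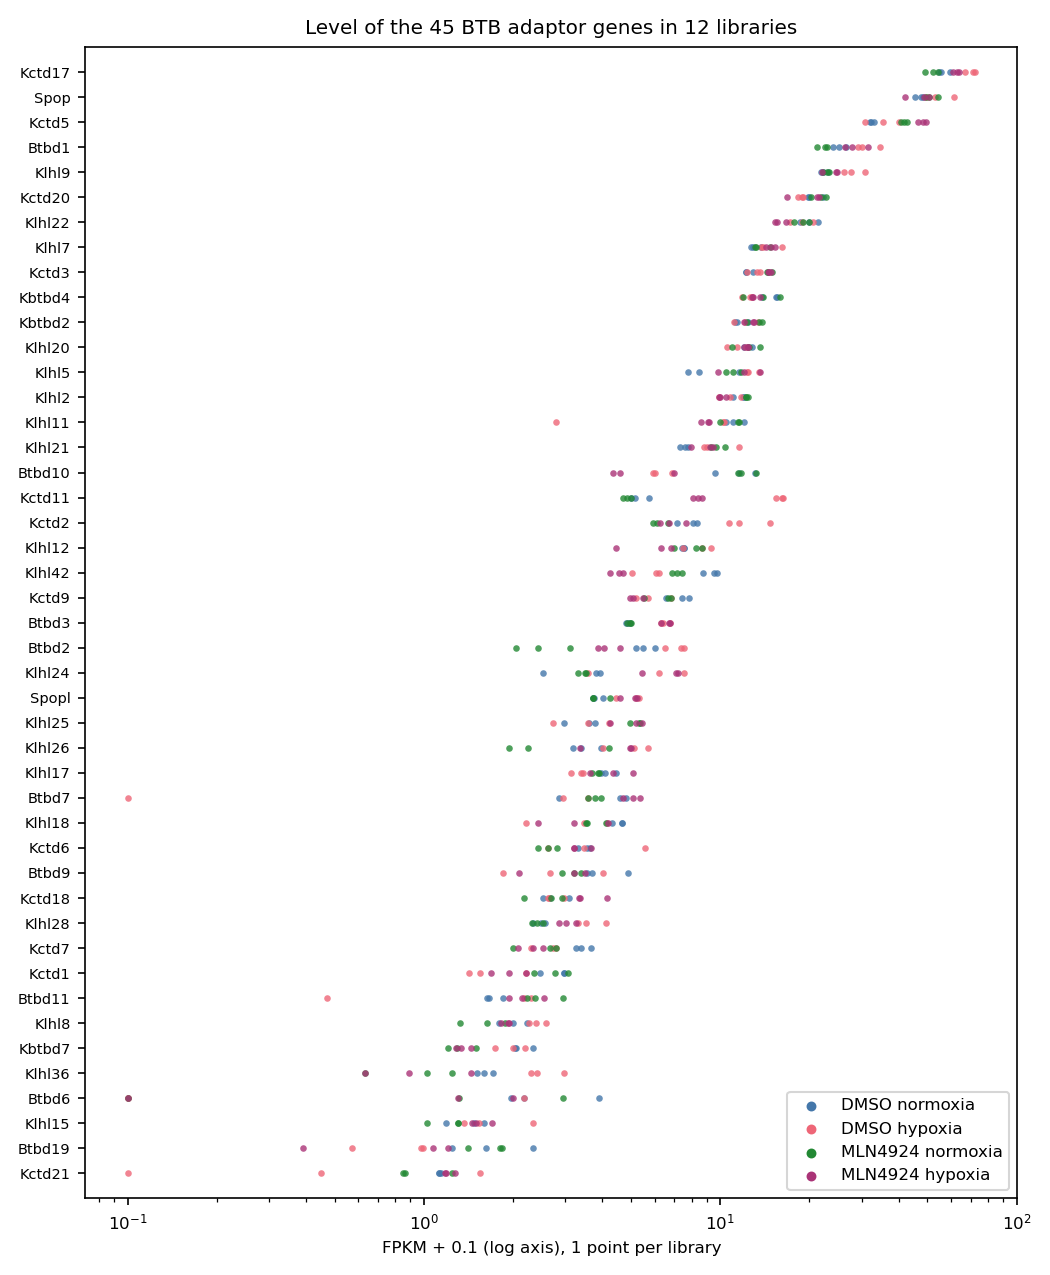
FPKM of the 45 adaptor genes in each of the 12 libraries on a log axis (0.1 FPKM added for display), ordered by mean, 1 point per library coloured by group. Kctd17, Spop and Kctd5 stand highest, and for most members the 4 groups lie close together.

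The members' summed level was 444 ± 4.55 FPKM (SD, n = 3) in DMSO normoxia, 484 ± 15.1 in DMSO hypoxia, 445 ± 2.58 in MLN4924 normoxia and 457 ± 9.12 in MLN4924 hypoxia. In bulk samples like these, fewer cells of a type and less RNA per cell cannot be told apart.

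The share of adaptors called was near that of all tested genes. A member is said to rise or fall where limma's test on log2(FPKM + 1) gave a p, adjusted over all 12311 tested genes, under 0.05. In at least 1 of the 4 pairwise comparisons 24 of the 45 members (53.3%) passed, beside 53.6% of all tested genes, and 21 passed in none. Without DMSO hypoxia replicate 1 the numbers were 31 members (68.9%) beside 65.2% of all genes, and the 7 gained were Btbd6, Btbd7, Btbd11, Kctd6, Kctd7, Kctd9 and Klhl11. There were 43 such calls, of which 2 reached a 2-fold change on the FPKM + 1 scale, which understates changes of low genes. In all 43 the groups of 3 did not overlap, 39 were kept without DMSO hypoxia replicate 1, and 22 held in every one of the 12 fits that left out 1 library. The same counts were not made over all called genes, so they show nothing particular to the members. A test of any difference among the 4 groups called 23 members (51.1%) beside 52.7% of all tested genes.

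Hypoxia in DMSO raised 10 members (22.2%) beside 13.8% of all tested genes, and lowered 3 (6.67%) beside 19.4%. Without DMSO hypoxia replicate 1 the numbers were 10 rising members beside 14.8% of all genes and 5 falling beside 23.9%. After each library was rescaled to the same total, 8 members rose and 4 fell, and over all genes 1575 rose and 2524 fell. With median-of-ratios scaling 12 members rose and 3 fell, and over all genes 2060 rose and 1988 fell, against 1700 and 2393 as fitted. The members' median log2 change was 0.06 against -0.08 over all tested genes, and it was -0.01 against -0.07 without that library. Hypoxia in MLN4924 raised 8 members (17.8%) beside 11.7% of all genes and lowered 5 (11.1%) beside 16.5%, with a median of 0.01 against -0.05, and either scaling gave 9 rising and 3 falling members. Over all genes 1439 rose and 2034 fell as fitted, 1581 and 1863 after rescaling, and 1751 and 1687 with median-of-ratios scaling.

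MLN4924 in normoxia raised 4 members (8.89%) beside 9.33% of all genes and lowered 3 (6.67%) beside 10.7%. MLN4924 in hypoxia raised 2 members (4.44%) beside 12.2% of all genes and lowered 8 (17.8%) beside 13.3%. Without DMSO hypoxia replicate 1 these became 5 rising and 6 falling members in normoxia, beside 16% and 18.2% of all genes, through the shared estimate of spread. In hypoxia they became 4 rising and 7 falling, beside 16.8% and 15.7%. The share of all genes grew in each of these 4 counts as well. The members' median log2 change with MLN4924 was -0.07 in normoxia against -0.03 over all genes, and -0.08 in hypoxia against -0.01 (-0.03 without that library). The hypoxia effect differed between MLN4924 and DMSO for 1 member (2.22%), which was lower, beside 0.926% of all genes lower and 0.958% higher. Without DMSO hypoxia replicate 1 it was again 1 member (2.22%), beside 2.21% of all genes lower and 3.3% higher.

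**Figure D2:**
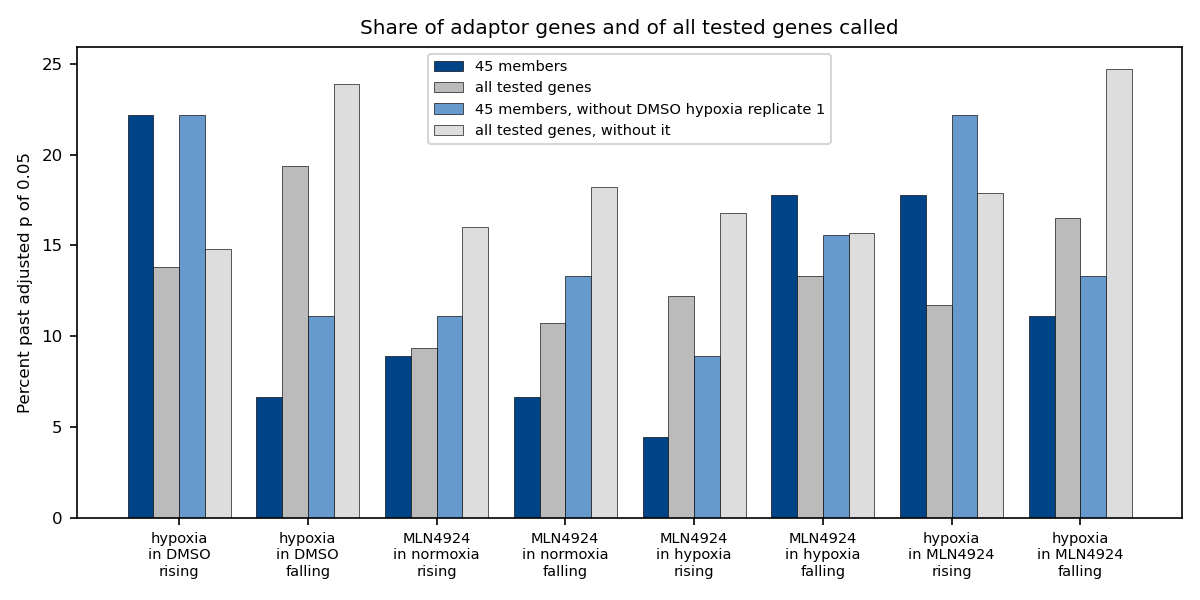
Percent of the 45 adaptor genes and of all 12311 tested genes that rose or fell in each of the 4 pairwise comparisons, with all libraries and without DMSO hypoxia replicate 1 (bars start at 0). The members' falling share with hypoxia in DMSO is 6.67% against 19.4% of all genes, and their rising share with MLN4924 in hypoxia 4.44% against 12.2%.

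The promoters of 4 genes whose level changed with oxygen are shown for the core of the hypoxia response element, the short sequence that hypoxia-inducible factors bind. The core was searched as ACGTG and as GCGTG on both strands, where CACGTG counts on each strand. The windows hold 250 bases before and 50 after the annotated start from RefSeq on build GRCm38.p6, written 5′ to 3′ on the gene's strand, with matches in capitals. They lie at chr11:69880936-69881235 (minus strand) for Kctd11, at chr11:115419876-115420175 (plus strand) for Kctd2, at chr12:64965487-64965786 (minus strand) for Klhl28 and at chr7:113369290-113369589 (minus strand) for Btbd10.
Kctd11: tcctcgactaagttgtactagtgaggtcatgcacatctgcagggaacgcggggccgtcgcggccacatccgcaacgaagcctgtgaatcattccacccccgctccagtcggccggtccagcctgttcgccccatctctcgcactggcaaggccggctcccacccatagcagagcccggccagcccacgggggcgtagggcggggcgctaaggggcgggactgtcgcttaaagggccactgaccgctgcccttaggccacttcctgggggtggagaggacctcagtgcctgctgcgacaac
Kctd2: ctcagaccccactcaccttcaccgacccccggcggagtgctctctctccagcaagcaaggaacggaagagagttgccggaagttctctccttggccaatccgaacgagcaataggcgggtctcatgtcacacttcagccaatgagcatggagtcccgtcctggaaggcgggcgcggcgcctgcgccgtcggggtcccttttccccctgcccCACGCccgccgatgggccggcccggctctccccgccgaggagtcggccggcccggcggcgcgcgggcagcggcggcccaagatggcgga
Klhl28: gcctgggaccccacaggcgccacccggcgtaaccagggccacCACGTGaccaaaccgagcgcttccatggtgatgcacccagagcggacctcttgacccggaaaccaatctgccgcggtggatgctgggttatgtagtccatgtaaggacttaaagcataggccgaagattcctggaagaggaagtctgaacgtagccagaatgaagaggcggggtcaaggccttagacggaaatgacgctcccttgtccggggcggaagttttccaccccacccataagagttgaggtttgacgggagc
Btbd10: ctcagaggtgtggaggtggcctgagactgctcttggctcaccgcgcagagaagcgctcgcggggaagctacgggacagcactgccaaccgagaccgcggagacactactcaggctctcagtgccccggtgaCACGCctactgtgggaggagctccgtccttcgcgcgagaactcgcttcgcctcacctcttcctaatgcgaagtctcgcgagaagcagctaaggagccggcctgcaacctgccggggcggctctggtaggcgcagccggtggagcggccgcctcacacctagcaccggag

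The Kctd11 window held neither form in these letters. The Kctd2 and Btbd10 windows each held GCGTG on the opposite strand, and the Klhl28 window held CACGTG. Windows were found for 36 of the 45 members, 48 in all, and 34 of these (70.8%) held a match, against 63.1% of 11663 windows of tested genes and 43.8% of all 32851 windows. A match was thus common in any promoter of this length. The antioxidant element TGACNNNGC was found in 8 of the 48 windows (16.7%) against 14.4% of the windows of tested genes.

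Kctd11 gave the largest response. Its product is known from human and mouse cells as a CUL3 adaptor that directs HDAC1 for degradation and restrains Hedgehog signalling. Kctd11 stood at 5.65, 5.07 and 4.91 FPKM in DMSO normoxia and at 15.3, 16.1 and 16.04 FPKM in DMSO hypoxia. With MLN4924 it stood at 4.74, 4.88 and 4.58 FPKM in normoxia and at 8.56, 7.96 and 8.33 FPKM in hypoxia. The 3 DMSO hypoxia libraries were the highest, the 3 MLN4924 hypoxia libraries came next without overlap, and all normoxia libraries lay below both.

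Hypoxia raised Kctd11 in DMSO by 1.44 ± 0.07 (log2, SE; adjusted p = 3.81e-07), a 2.71-fold change on the FPKM + 1 scale. The rise was 1.46 (adjusted p = 5.07e-07) without DMSO hypoxia replicate 1. In MLN4924 the rise was 0.70 ± 0.07 (log2, SE; adjusted p = 7.75e-05), or 1.62-fold on the same scale. The difference between both responses was -0.74 ± 0.10 (log2, SE; adjusted p = 0.00659), and it was -0.77 (adjusted p = 0.00221) without that library. In hypoxia MLN4924 lowered Kctd11, with a change of -0.86 ± 0.07 (log2, SE; adjusted p = 2.79e-05), whereas in normoxia its change of -0.11 ± 0.07 (log2, SE; adjusted p = 0.316) did not pass. All of these calls held in each of the 12 leave-one-out fits. The difference between responses was called for Kctd11 and for no other member. Of 8 oxygen response genes read beside it, MLN4924 lowered 7 and raised 0 in hypoxia, lowered 5 and raised 1 in normoxia, and the hypoxia response differed for 1, which was lower (3 higher and 2 lower without that library).

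The 2 related adaptors, Kctd6 and Kctd21, were called in no comparison with all libraries. Kctd6 averaged 3.40 ± 0.161 FPKM (SD, n = 3) in DMSO normoxia, 3.79 ± 1.51 in DMSO hypoxia, 2.52 ± 0.20 in MLN4924 normoxia and 3.26 ± 0.260 in MLN4924 hypoxia. Kctd21 averaged 1.03 ± 0.0115, 0.597 ± 0.751, 0.883 ± 0.222 and 1.11 ± 0.0493 FPKM in the same order, and it was listed at 0.00 in DMSO hypoxia replicate 1. Their spread in DMSO hypoxia was wide compared with the other groups. Without that library the hypoxia change of Kctd6 in DMSO went from 0.08 to -0.16 (adjusted p = 0.293), and its change with MLN4924 in normoxia of -0.32 ± 0.18 (log2, SE; adjusted p = 0.257) passed at -0.32 (adjusted p = 0.0346).

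**Figure D3:**
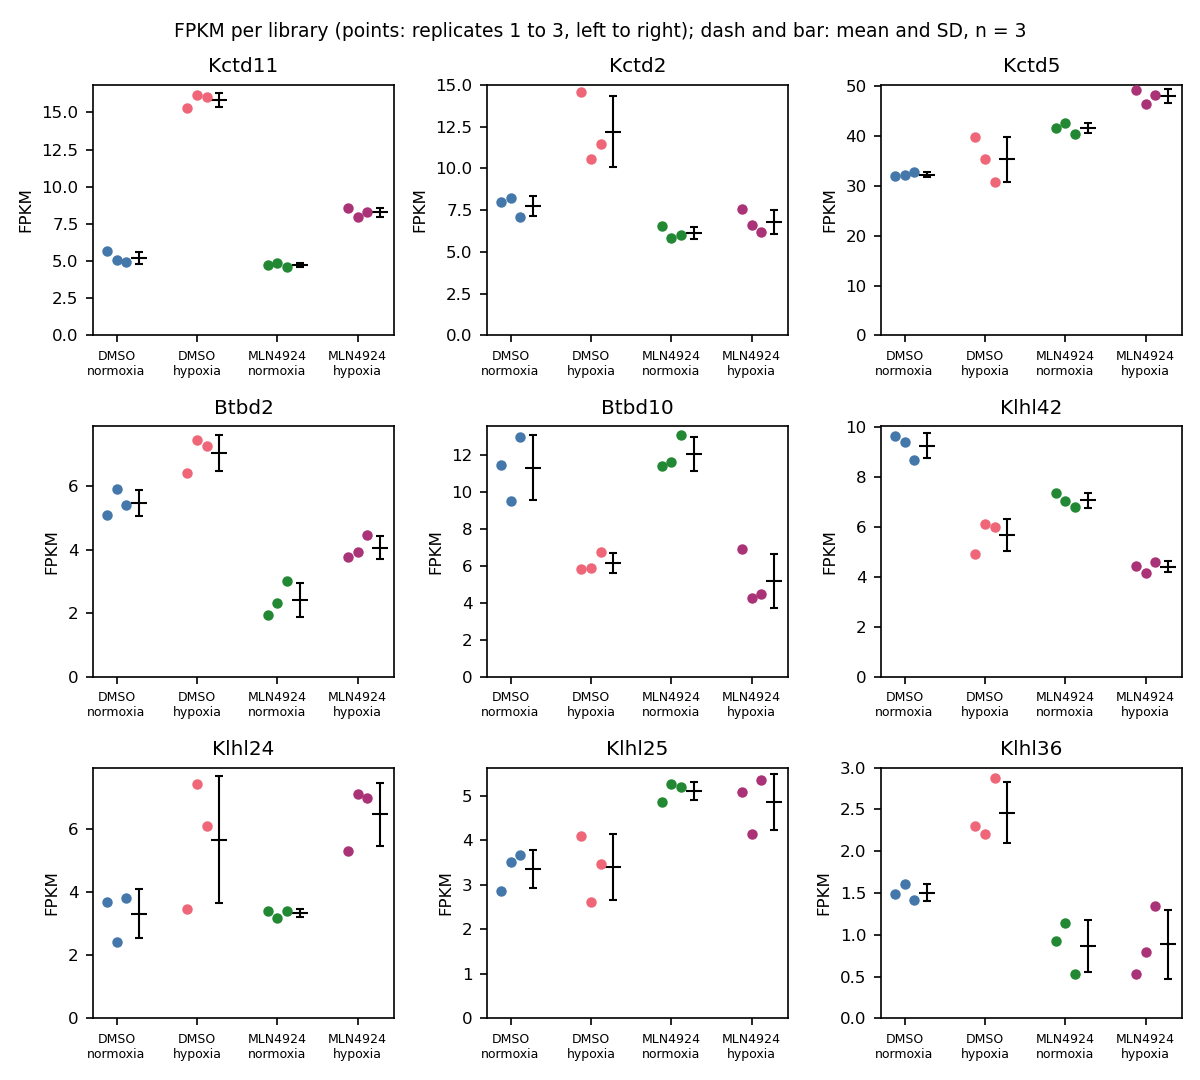
FPKM of Kctd11, Kctd2, Kctd5, Btbd2, Btbd10, Klhl42, Klhl24, Klhl25 and Klhl36 in the 4 groups, with 1 point per replicate and the mean ± SD (n = 3). Kctd11 is highest in DMSO hypoxia (15.8 ± 0.474 FPKM), Btbd2 lowest in MLN4924 normoxia (2.42 ± 0.536), and Btbd10 and Klhl42 are lower in both hypoxia groups.

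Kctd2 and Kctd5 are close paralogs that were called in opposite directions with MLN4924 in hypoxia. Kctd2, whose product is known as an adaptor for MYC, was at 7.97, 8.24 and 7.07 FPKM in DMSO normoxia and at 14.6, 10.6 and 11.4 in DMSO hypoxia. In MLN4924 it was at 6.54, 5.83 and 6.0 FPKM in normoxia and at 7.55, 6.60 and 6.18 in hypoxia. The DMSO hypoxia libraries were the highest, with replicate 1 farthest out. Kctd2 rose with hypoxia in DMSO by 0.58 ± 0.12 (log2, SE; adjusted p = 0.0039), and by 0.46 (adjusted p = 0.00428) without that replicate. It fell with MLN4924 in hypoxia, with a change of -0.76 ± 0.12 (log2, SE; adjusted p = 0.0012), and of -0.63 (adjusted p = 8.75e-04) without that replicate. In MLN4924 its hypoxia change of 0.12 ± 0.12 (log2, SE; adjusted p = 0.489) did not pass, and the difference between the hypoxia responses, -0.46 ± 0.17 (log2, SE; adjusted p = 0.239), was not called.

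Kctd5 was at 31.9, 32.1 and 32.8 FPKM in DMSO normoxia and at 39.9, 35.3 and 30.8 in DMSO hypoxia. With MLN4924 it was at 41.7, 42.6 and 40.5 FPKM in normoxia and at 49.3, 46.5 and 48.3 in hypoxia. At each oxygen level every MLN4924 library exceeded every DMSO library. MLN4924 raised Kctd5 by 0.36 ± 0.08 (log2, SE; adjusted p = 0.00981) in normoxia and by 0.44 ± 0.08 (log2, SE; adjusted p = 0.0026) in hypoxia, the latter 0.53 (adjusted p = 1.00e-04) without DMSO hypoxia replicate 1. Both calls held in all leave-one-out fits, but the second missed the threshold in a fit of those 6 libraries alone (adjusted p = 0.0519). Its hypoxia change in DMSO was 0.12 ± 0.08 (log2, SE; adjusted p = 0.27), and 0.03 (adjusted p = 0.708) without that library, called in neither. Its hypoxia change in MLN4924 of 0.20 ± 0.08 (log2, SE; adjusted p = 0.0823) was not called with all libraries and passed without that library (adjusted p = 0.00895).

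Kctd17 was higher in hypoxia with and without the inhibitor. It stood at 54.7, 59.7 and 55.7 FPKM in DMSO normoxia, at 72.3, 66.7 and 71.2 in DMSO hypoxia, at 48.8, 54.1 and 52.03 in MLN4924 normoxia and at 63.8, 61.03 and 62.8 in MLN4924 hypoxia. Hypoxia and normoxia libraries did not overlap at either treatment. It rose by 0.30 ± 0.06 (log2, SE; adjusted p = 0.00269) in DMSO, 0.28 (adjusted p = 0.00309) without DMSO hypoxia replicate 1, and by 0.27 ± 0.06 (log2, SE; adjusted p = 0.00543) in MLN4924, and both calls held in all leave-one-out fits.

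Kctd1, known as a repressor of TFAP2 factors, stood at 2.36, 2.86 and 2.88 FPKM in DMSO normoxia and at 1.32, 2.11 and 1.44 in DMSO hypoxia, and every hypoxia library was lower. Its change was -0.51 ± 0.14 (log2, SE; adjusted p = 0.0193), and -0.42 (adjusted p = 0.0454) without DMSO hypoxia replicate 1. The Kctd1 call with hypoxia in DMSO was lost without any 1 of DMSO hypoxia replicate 3 or DMSO normoxia replicates 2 or 3 (adjusted p 0.0548 to 0.0647). Kctd3, a partner of the HCN3 channel, stood at 12.1, 12.2 and 12.8 FPKM in DMSO normoxia and at 14.9, 14.4 and 14.3 in MLN4924 normoxia. It rose by 0.22 ± 0.06 (log2, SE; adjusted p = 0.0239). The Kctd3 call with MLN4924 in normoxia was lost without any 1 of DMSO normoxia replicates 1 or 2 or MLN4924 normoxia replicates 1, 2 or 3 (adjusted p 0.0609 to 0.0879). Kctd18 stood at 2.08, 2.58 and 2.83 FPKM in MLN4924 normoxia and at 3.24, 3.27 and 4.06 in MLN4924 hypoxia, and rose by 0.37 ± 0.12 (log2, SE; adjusted p = 0.0395). The Kctd18 call with hypoxia in MLN4924 was lost without any 1 of DMSO normoxia replicates 1 or 2, MLN4924 hypoxia replicates 1, 2 or 3 or MLN4924 normoxia replicates 1 or 2 (adjusted p 0.0509 to 0.145). The groups did not overlap for Kctd1, Kctd3 or Kctd18 in these comparisons. The exons of Kctd18 overlap those of Sgo2a on the other strand, and the strandedness of the libraries is not given in the sources used here, so their reads cannot be told apart. In all, 11 members overlap another gene's exons in the annotation used, Kctd1, Klhl9, Klhl21 and Spopl among those called.

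Among the called Btbd genes, Btbd2 gave the largest change with MLN4924. BTBD1 and BTBD2 are close paralogs known to bind topoisomerase I. Btbd2 was at 5.09, 5.90 and 5.4 FPKM in DMSO normoxia and at 1.94, 2.33 and 3.00 in MLN4924 normoxia. In hypoxia it was at 6.40, 7.46 and 7.26 FPKM with DMSO and at 3.78, 3.94 and 4.47 with MLN4924. The inhibitor libraries were lower at both oxygen levels with no overlap. Its change with MLN4924 was -0.93 ± 0.12 (log2, SE; adjusted p = 4.45e-04) in normoxia and -0.67 ± 0.12 (log2, SE; adjusted p = 0.00285) in hypoxia, the latter -0.73 (adjusted p = 0.00213) without DMSO hypoxia replicate 1. With hypoxia it rose in MLN4924 by 0.57 ± 0.12 (log2, SE; adjusted p = 0.00572). These 3 calls held in all leave-one-out fits. In DMSO its hypoxia change of 0.31 ± 0.12 (log2, SE; adjusted p = 0.0705) did not pass, but 0.37 (adjusted p = 0.0446) without that replicate did.

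Btbd1 was at 25.1, 23.8 and 26.5 FPKM in DMSO normoxia, at 34.6, 29.9 and 28.97 in DMSO hypoxia, at 21.04, 22.4 and 22.8 in MLN4924 normoxia and at 26.3, 31.5 and 27.6 in MLN4924 hypoxia. Hypoxia libraries were higher at both treatments. It rose by 0.30 ± 0.09 (log2, SE; adjusted p = 0.0229) in DMSO, 0.22 (adjusted p = 0.0428) without DMSO hypoxia replicate 1, and by 0.35 ± 0.09 (log2, SE; adjusted p = 0.0119) in MLN4924, and the second call held in all leave-one-out fits. The Btbd1 call with hypoxia in DMSO was lost without any 1 of DMSO normoxia replicates 1 or 2 (adjusted p 0.0613 to 0.0838). No MLN4924 comparison called Btbd1.

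Btbd3, known for the orientation of dendrites in neurons, was at 4.80, 4.70 and 4.86 FPKM in DMSO normoxia, at 6.66, 6.19 and 6.33 in DMSO hypoxia, at 4.87, 4.74 and 4.91 in MLN4924 normoxia and at 6.19, 6.63 and 6.64 in MLN4924 hypoxia. The normoxia libraries lay in a narrow band below all hypoxia libraries. It rose with hypoxia by 0.35 ± 0.07 (log2, SE; adjusted p = 0.00325) in DMSO, 0.33 (adjusted p = 0.00355) without DMSO hypoxia replicate 1, and by 0.36 ± 0.07 (log2, SE; adjusted p = 0.00349) in MLN4924, in all leave-one-out fits.

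Btbd10 moved the other way. Its product is known as an activator of Akt signalling. It was at 11.4, 9.50 and 12.99 FPKM in DMSO normoxia, at 5.81, 5.91 and 6.75 in DMSO hypoxia, at 11.4, 11.6 and 13.1 in MLN4924 normoxia and at 6.89, 4.24 and 4.48 in MLN4924 hypoxia. Every hypoxia library was lower than every normoxia library. The change with hypoxia was -0.78 ± 0.16 (log2, SE; adjusted p = 0.00403) in DMSO, -0.74 (adjusted p = 0.00892) without DMSO hypoxia replicate 1, and -1.09 ± 0.16 (log2, SE; adjusted p = 6.38e-04) in MLN4924. Both calls held in all leave-one-out fits, and neither MLN4924 comparison called the gene.

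The Klhl genes of cell division moved in both directions. KLHL42 directs katanin p60 for degradation, KLHL9 and KLHL21 act on Aurora B in mitosis, KLHL22 acts on PLK1 and DEPDC5, and KLHL18 acts on Aurora A. Klhl42 was at 9.64, 9.40 and 8.67 FPKM in DMSO normoxia, at 4.92, 6.10 and 5.98 in DMSO hypoxia, at 7.35, 7.03 and 6.77 in MLN4924 normoxia and at 4.44, 4.15 and 4.60 in MLN4924 hypoxia. The groups ran in the order DMSO normoxia, MLN4924 normoxia, DMSO hypoxia and MLN4924 hypoxia from high to low, and no neighbours overlapped. The change with hypoxia was -0.62 ± 0.09 (log2, SE; adjusted p = 5.02e-04) in DMSO, -0.54 (adjusted p = 3.38e-04) without DMSO hypoxia replicate 1, and -0.58 ± 0.09 (log2, SE; adjusted p = 9.61e-04) in MLN4924, in all leave-one-out fits.

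With MLN4924, Klhl42 changed by -0.35 ± 0.09 (log2, SE; adjusted p = 0.021) in normoxia and by -0.30 ± 0.09 (log2, SE; adjusted p = 0.0324) in hypoxia, the latter -0.38 (adjusted p = 0.00321) without DMSO hypoxia replicate 1. The Klhl42 call with MLN4924 in normoxia was lost without any 1 of DMSO normoxia replicates 1 or 2 or MLN4924 normoxia replicates 2 or 3 (adjusted p 0.0629 to 0.0788). That with MLN4924 in hypoxia was lost without any 1 of DMSO hypoxia replicates 2 or 3 or MLN4924 hypoxia replicates 1, 2 or 3 (adjusted p 0.0588 to 0.1). Klhl42 was the single member called in all 4 pairwise comparisons, and it fell in each. After each library was rescaled to the same total neither MLN4924 call remained (adjusted p = 0.0636 and 0.147).

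Klhl9 was at 21.8, 23.1 and 22.1 FPKM in DMSO normoxia, at 30.7, 25.98 and 27.6 in DMSO hypoxia and at 21.97, 24.6 and 24.4 in MLN4924 hypoxia. All DMSO normoxia and MLN4924 hypoxia libraries lay below the DMSO hypoxia libraries. It rose with hypoxia in DMSO by 0.32 ± 0.07 (log2, SE; adjusted p = 0.00676), or by 0.25 (adjusted p = 0.00737) without DMSO hypoxia replicate 1, and the call held in all leave-one-out fits but not in a fit of those 6 libraries alone (adjusted p = 0.053). With MLN4924 in hypoxia its change was -0.23 ± 0.07 (log2, SE; adjusted p = 0.0345), and -0.17 (adjusted p = 0.0497) without that library. The Klhl9 call with MLN4924 in hypoxia was lost without any 1 of DMSO hypoxia replicate 3, DMSO normoxia replicate 3, MLN4924 hypoxia replicates 1, 2 or 3 or MLN4924 normoxia replicates 1 or 3 (adjusted p 0.0507 to 0.126).

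Klhl21 was at 7.19, 7.67 and 7.49 FPKM in DMSO normoxia, at 11.4, 8.90 and 8.69 in DMSO hypoxia and at 9.17, 10.3 and 9.60 in MLN4924 normoxia. The DMSO normoxia libraries were the lowest of these. It rose by 0.33 ± 0.11 (log2, SE; adjusted p = 0.0357) with hypoxia in DMSO, 0.21 (adjusted p = 0.0625) without DMSO hypoxia replicate 1, and by 0.34 ± 0.11 (log2, SE; adjusted p = 0.0458) with MLN4924 in normoxia. The Klhl21 call with hypoxia in DMSO was lost without any 1 of DMSO hypoxia replicate 1, DMSO normoxia replicates 1, 2 or 3 or MLN4924 normoxia replicate 3 (adjusted p 0.0515 to 0.1). That with MLN4924 in normoxia was lost without any 1 of DMSO normoxia replicates 1, 2 or 3, MLN4924 hypoxia replicates 1 or 3 or MLN4924 normoxia replicates 1, 2 or 3 (adjusted p 0.0594 to 0.144). Klhl22 was at 19.9, 18.97 and 17.6 FPKM in MLN4924 normoxia and at 15.5, 16.5 and 15.2 in MLN4924 hypoxia, a change of -0.24 ± 0.08 (log2, SE; adjusted p = 0.0478). The Klhl22 call with hypoxia in MLN4924 was lost without any 1 of DMSO hypoxia replicate 3, DMSO normoxia replicates 1, 2 or 3, MLN4924 hypoxia replicates 1, 2 or 3 or MLN4924 normoxia replicates 1, 2 or 3 (adjusted p 0.0526 to 0.156).

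Klhl18 passed in no comparison, and its means were 4.44 ± 0.208 FPKM (SD, n = 3) in DMSO normoxia, 3.18 ± 0.988 in DMSO hypoxia, 3.63 ± 0.344 in MLN4924 normoxia and 3.17 ± 0.876 in MLN4924 hypoxia. Klhl28, paired with it in the list of related genes, was at 2.38, 2.47 and 2.23 FPKM in DMSO normoxia and at 3.20, 3.42 and 4.02 in DMSO hypoxia. All hypoxia libraries were higher, and Klhl28 rose by 0.43 ± 0.10 (log2, SE; adjusted p = 0.0066), or by 0.49 (adjusted p = 0.00325) without DMSO hypoxia replicate 1. The call held in all leave-one-out fits but not in a fit of those 6 libraries alone (adjusted p = 0.0578).

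Among the other Klhl genes, Klhl36 had the largest fall with MLN4924 in hypoxia. Klhl36 was at 2.30, 2.20 and 2.88 FPKM in DMSO hypoxia and at 0.53, 0.79 and 1.34 in MLN4924 hypoxia. In normoxia it was at 1.49, 1.61 and 1.41 FPKM with DMSO and at 0.92, 1.14 and 0.53 with MLN4924. The inhibitor libraries were lower at both oxygen levels, though all values were low. Its change was -0.89 ± 0.18 (log2, SE; adjusted p = 0.0045) in hypoxia, -0.92 (adjusted p = 0.0069) without DMSO hypoxia replicate 1, and this call held in all leave-one-out fits. In normoxia the change of -0.44 ± 0.18 (log2, SE; adjusted p = 0.111) did not pass.

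Klhl24, whose product acts on keratin 14 in skin, was at 3.42, 3.20 and 3.40 FPKM in MLN4924 normoxia and at 5.33, 7.12 and 7.01 in MLN4924 hypoxia. It rose there by 0.78 ± 0.22 (log2, SE; adjusted p = 0.0244). The Klhl24 call with hypoxia in MLN4924 was lost without any 1 of MLN4924 hypoxia replicates 2 or 3 or MLN4924 normoxia replicates 1, 2 or 3 (adjusted p 0.0609 to 0.0826). In DMSO it was at 3.70, 2.42 and 3.83 FPKM in normoxia and at 3.47, 7.46 and 6.10 in hypoxia. DMSO hypoxia replicate 1 lay within the normoxia range while the other replicates lay above it. The change of 0.60 ± 0.22 (log2, SE; adjusted p = 0.0613) did not pass, whereas 0.86 (adjusted p = 0.00284) without that replicate did.

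Klhl25, whose product acts on 4E-BP1 and ATP citrate lyase, was at 2.87, 3.51 and 3.68 FPKM in DMSO normoxia and at 4.87, 5.26 and 5.21 in MLN4924 normoxia. In hypoxia it was at 4.10, 2.62 and 3.47 FPKM with DMSO and at 5.08, 4.15 and 5.36 with MLN4924. MLN4924 libraries were higher at both oxygen levels. Klhl25 rose by 0.49 ± 0.14 (log2, SE; adjusted p = 0.03) in normoxia and by 0.42 ± 0.14 (log2, SE; adjusted p = 0.0471) in hypoxia, the latter 0.54 (adjusted p = 0.012) without DMSO hypoxia replicate 1. The Klhl25 call with MLN4924 in normoxia was lost without any 1 of DMSO normoxia replicates 1, 2 or 3 or MLN4924 normoxia replicates 1, 2 or 3 (adjusted p 0.0503 to 0.111). That with MLN4924 in hypoxia was lost without any 1 of DMSO hypoxia replicates 2 or 3, DMSO normoxia replicates 1, 2 or 3, MLN4924 hypoxia replicates 1 or 3 or MLN4924 normoxia replicates 1, 2 or 3 (adjusted p 0.0509 to 0.149).

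Klhl12, whose product acts on Dishevelled and on the vesicle coat protein SEC31, was at 9.17, 8.57 and 7.41 FPKM in DMSO hypoxia, at 4.36, 6.20 and 6.72 in MLN4924 hypoxia and at 8.18, 8.56 and 6.90 in MLN4924 normoxia. The MLN4924 hypoxia libraries were the lowest. Its change was -0.49 ± 0.14 (log2, SE; adjusted p = 0.0262) with MLN4924 in hypoxia, -0.43 (adjusted p = 0.0535) without DMSO hypoxia replicate 1, and -0.41 ± 0.14 (log2, SE; adjusted p = 0.0495) with hypoxia in MLN4924. The Klhl12 call with MLN4924 in hypoxia was lost without any 1 of DMSO hypoxia replicates 1 or 2 or MLN4924 hypoxia replicate 1 (adjusted p 0.0535 to 0.074). That with hypoxia in MLN4924 was lost without any 1 of DMSO hypoxia replicate 2, DMSO normoxia replicates 1, 2 or 3, MLN4924 hypoxia replicates 1 or 2 or MLN4924 normoxia replicates 1 or 2 (adjusted p 0.0604 to 0.154). Its relative Klhl20, which acts on PML and DAPK, passed in no comparison, with means of 12.3 ± 0.423 FPKM (SD, n = 3) in DMSO normoxia, 11.3 ± 0.831 in DMSO hypoxia, 12.3 ± 1.32 in MLN4924 normoxia and 12.2 ± 0.244 in MLN4924 hypoxia.

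Klhl5 was at 11.4, 8.38 and 7.68 FPKM in DMSO normoxia and at 12.2, 13.4 and 12.3 in DMSO hypoxia, with no overlap, and rose by 0.44 ± 0.14 (log2, SE; adjusted p = 0.0356), or by 0.46 (adjusted p = 0.0441) without DMSO hypoxia replicate 1. The Klhl5 call with hypoxia in DMSO was lost without any 1 of DMSO hypoxia replicates 2 or 3, DMSO normoxia replicates 2 or 3 or MLN4924 normoxia replicate 1 (adjusted p 0.0506 to 0.126). Klhl2, an adaptor for WNK kinases, was at 12.1, 12.1 and 12.3 FPKM in MLN4924 normoxia and at 9.87, 10.4 and 9.81 in MLN4924 hypoxia, a change of -0.26 ± 0.07 (log2, SE; adjusted p = 0.0224). The Klhl2 call with hypoxia in MLN4924 was lost without any 1 of MLN4924 hypoxia replicates 1 or 3 or MLN4924 normoxia replicates 1, 2 or 3 (adjusted p 0.0585 to 0.0721). Its paralog Klhl3 stayed at or below 0.02 FPKM.

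Kbtbd7, which with KBTBD6 acts on the Rac activator TIAM1, was lower with MLN4924. It was at 1.93, 1.95 and 2.23 FPKM in DMSO normoxia, at 1.19, 1.40 and 1.11 in MLN4924 normoxia, at 2.09, 1.63 and 1.89 in DMSO hypoxia and at 1.23, 1.18 and 1.34 in MLN4924 hypoxia. No inhibitor library reached the DMSO libraries at the same oxygen level. Its change was -0.44 ± 0.11 (log2, SE; adjusted p = 0.0142) in normoxia and -0.35 ± 0.11 (log2, SE; adjusted p = 0.035) in hypoxia, the latter -0.29 (adjusted p = 0.0729) without DMSO hypoxia replicate 1. The Kbtbd7 call with MLN4924 in normoxia was lost without any 1 of DMSO normoxia replicate 3 or MLN4924 normoxia replicates 1 or 3 (adjusted p 0.05 to 0.06). That with MLN4924 in hypoxia was lost without any 1 of DMSO hypoxia replicates 1 or 3, DMSO normoxia replicate 2, MLN4924 hypoxia replicates 1, 2 or 3 or MLN4924 normoxia replicate 1 (adjusted p 0.0504 to 0.0964). Its close paralog Kbtbd6 reached at most 0.54 FPKM and was not tested, and reads of such near copies may be split in counting.

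Spopl was called with hypoxia and its paralog Spop was not. Spop was at 45.4, 48.1 and 47.5 FPKM in DMSO normoxia, at 61.5, 49.5 and 52.96 in DMSO hypoxia, at 54.2, 49.5 and 50.5 in MLN4924 normoxia and at 48.5, 41.9 and 50.7 in MLN4924 hypoxia, and it passed in no comparison. Its lowest adjusted p was 0.1. Spopl was at 3.63, 3.64 and 3.93 FPKM in DMSO normoxia, at 5.23, 4.36 and 5.08 in DMSO hypoxia, at 4.15, 3.62 and 3.61 in MLN4924 normoxia and at 4.47, 5.05 and 5.13 in MLN4924 hypoxia. Its hypoxia libraries were higher at both treatments. Spopl rose by 0.31 ± 0.09 (log2, SE; adjusted p = 0.0278) in DMSO, 0.27 (adjusted p = 0.051) without DMSO hypoxia replicate 1, and by 0.30 ± 0.09 (log2, SE; adjusted p = 0.0393) in MLN4924. The Spopl call with hypoxia in DMSO was lost without any 1 of DMSO hypoxia replicates 1 or 3 or DMSO normoxia replicates 1 or 2 (adjusted p 0.051 to 0.0813). That with hypoxia in MLN4924 was lost without any 1 of DMSO normoxia replicates 1, 2 or 3, MLN4924 hypoxia replicates 2 or 3 or MLN4924 normoxia replicates 2 or 3 (adjusted p 0.0534 to 0.122). Whether the responses of the paralogs differ was not tested.

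The hypoxia responses in DMSO and in MLN4924 share no library and could be set side by side. Of the 45 members 35 had the same sign in both, with a Pearson r of 0.62 and a Spearman rho of 0.62 across genes, which are not independent, and the r over all tested genes was 0.60. Kctd11, Btbd1, Btbd3, Kctd17 and Spopl rose in both, Btbd10 and Klhl42 fell in both, and no member was called in opposite directions. For MLN4924 in normoxia and in hypoxia, 25 of 45 had the same sign, with an r of 0.37 and a rho of 0.39, and the r over all genes was 0.50. Btbd2, Kbtbd7 and Klhl42 fell in both, and Kctd5 and Klhl25 rose in both. Without DMSO hypoxia replicate 1 the members' r was 0.63 for hypoxia, with 0.65 over all genes, and 0.29 for MLN4924, with 0.56 over all genes.

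**Figure D4:**
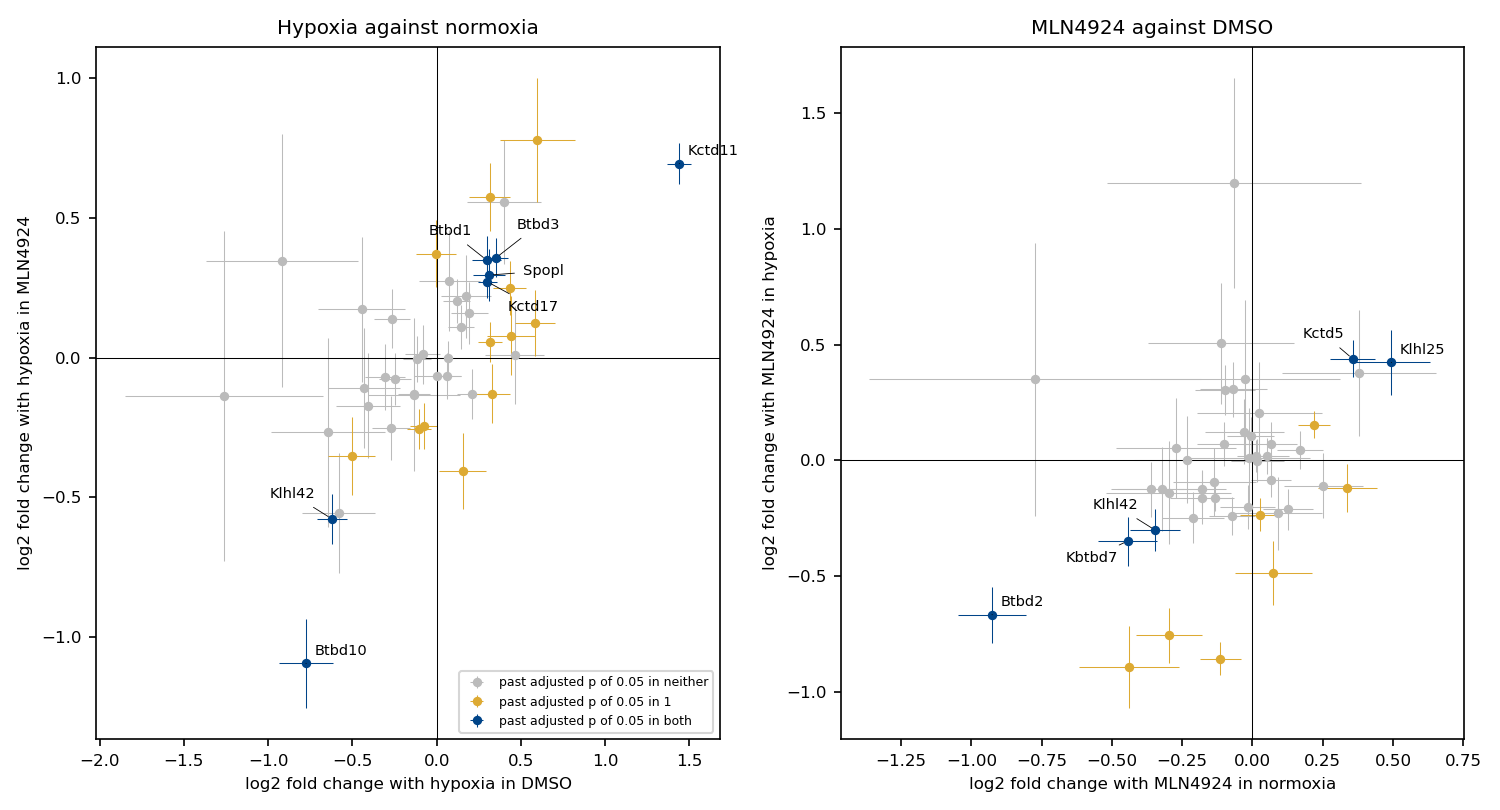
Log2 fold changes ± SE of the 45 adaptor genes: hypoxia in DMSO (x) against hypoxia in MLN4924 (y) on the left, MLN4924 in normoxia (x) against MLN4924 in hypoxia (y) on the right, coloured by the number of comparisons called. Kctd11 lies at 1.44 and 0.70 on the left, and Btbd2 at -0.93 and -0.67 on the right.

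The 21 members that passed in none of the 4 pairwise comparisons included adaptors with steady levels. Kbtbd2, which acts on the p85 subunit of PI3 kinase, ranged from 11.02 to 13.8 FPKM with log2 changes between -0.07 and 0.17. Klhl7 ranged from 12.6 to 16.1 FPKM with changes between 0.02 and 0.14, and Kctd20 from 16.7 to 22.7 FPKM with changes between -0.13 and 0.07. For other members the spread was wide instead. Btbd6 had log2 changes from -1.26 to 0.35 and Btbd7 from -0.92 to 1.20, and both were listed at 0.00 FPKM in at least 1 library. Without DMSO hypoxia replicate 1 the hypoxia change of Btbd6 in DMSO went from -1.26 to -1.80 (adjusted p = 0.0302) and was called. For Btbd7 the hypoxia change in DMSO went from -0.92 to -0.23 (adjusted p = 0.31), and the change with MLN4924 in hypoxia from 1.20 to 0.51 (adjusted p = 0.0415), which was called. The rest were Btbd9, Btbd11, Btbd19, Kbtbd4, Kctd6, Kctd7, Kctd9, Kctd21, Klhl8, Klhl11, Klhl15, Klhl17, Klhl18, Klhl20, Klhl26 and Spop. A p that misses the threshold does not show that levels were alike.

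The 24 members below the filter stayed untested, and 10 of them never reached 0.2 FPKM. Kbtbd8 (at most 1.06 FPKM) and Klhl23 (at most 1.38 FPKM) reached 1 FPKM in 1 or 2 libraries. Klhl10, which is needed in late male germ cells, reached at most 0.19 FPKM, and Klhl31, a gene of muscle, at most 0.01 FPKM. The GABA receptor auxiliary genes Kctd12 and Kctd16 reached at most 0.78 and 0.52 FPKM.

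Genes around the adaptors were read from lists, against the shares of all tested genes that rose and fell. These were 13.8% and 19.4% with hypoxia in DMSO and 11.7% and 16.5% with hypoxia in MLN4924. With MLN4924 they were 9.33% and 10.7% in normoxia, and 12.2% and 13.3% in hypoxia. Without DMSO hypoxia replicate 1 the shares were 14.8% and 23.9% with hypoxia in DMSO and 17.9% and 24.7% with hypoxia in MLN4924. With MLN4924 they were then 16% and 18.2% in normoxia, and 16.8% and 15.7% in hypoxia. Of 17 genes of the CUL3 core and its activation, hypoxia raised 1 and lowered 5 in DMSO, with 10 lowered without that library, and raised 0 and lowered 7 in MLN4924. MLN4924 raised 0 and lowered 0 in normoxia (3 and 1 without that library) and raised 2 and lowered 2 in hypoxia (2 and 1). Hypoxia in MLN4924 gave 1 rising and 9 falling without that library. Cul3 was at 43.8, 43.1 and 43.9 FPKM in DMSO normoxia, at 43.6, 39.7 and 41.5 in DMSO hypoxia, at 51.2, 46.9 and 47.9 in MLN4924 normoxia and at 38.01, 40.3 and 35.2 in MLN4924 hypoxia. The scaffold gene had its lowest mean in MLN4924 hypoxia, though these libraries overlapped those of DMSO hypoxia. It fell with hypoxia in MLN4924, with a change of -0.36 ± 0.06 (log2, SE; adjusted p = 0.00186), and passed in no other comparison, although MLN4924 in normoxia gave 0.15 (adjusted p = 0.0447) without that library.

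Of 18 other BTB adaptor genes outside the rule, hypoxia raised 2 and lowered 3 in DMSO and raised 4 and lowered 2 in MLN4924, and MLN4924 raised 3 and lowered 1 in normoxia and raised 5 and lowered 1 in hypoxia. The shares of all genes were 13.8% rising and 19.4% falling with hypoxia in DMSO, and 12.2% and 13.3% with MLN4924 in hypoxia. Without DMSO hypoxia replicate 1 hypoxia gave 2 rising and 2 falling in DMSO and 6 and 2 in MLN4924. MLN4924 then gave 3 rising and 4 falling in normoxia and 6 and 1 in hypoxia. Keap1, the adaptor for NRF2, passed in none. Enc1, a BTB and Kelch gene under another name, averaged 11.8 ± 1.05 FPKM (SD, n = 3) in DMSO normoxia, 6.52 ± 0.610 in DMSO hypoxia, 22.8 ± 0.426 in MLN4924 normoxia and 14.5 ± 0.581 in MLN4924 hypoxia. Its libraries did not overlap in any pairwise comparison, and it changed by -0.77 ± 0.08 (log2, SE; adjusted p = 6.26e-05) with hypoxia in DMSO and by 0.90 ± 0.08 (log2, SE; adjusted p = 3.84e-05) with MLN4924 in normoxia.

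The list of substrate genes also held substrates of adaptors outside the members, such as Nfe2l2 for Keap1. Of 33 tested substrate genes, hypoxia raised 5 and lowered 8 in DMSO and raised 2 and lowered 8 in MLN4924. MLN4924 raised 6 and lowered 4 in normoxia and raised 5 and lowered 6 in hypoxia. The first counts stand beside 13.8% rising and 19.4% falling over all genes, and the second beside 11.7% and 16.5%. Without DMSO hypoxia replicate 1 hypoxia in DMSO gave 6 rising and 8 falling, and MLN4924 in hypoxia 6 and 6. Hypoxia in MLN4924 then gave 5 and 12, and MLN4924 in normoxia 9 and 8. These are RNA levels, and protein degradation was not measured. Hdac1, the substrate of the KCTD11 adaptor, changed by -0.45 ± 0.05 (log2, SE; adjusted p = 1.56e-04) with hypoxia in DMSO, and Top1, the partner of BTBD1 and BTBD2, by -0.70 ± 0.06 (log2, SE; adjusted p = 2.87e-05). Hdac1 averaged 127 FPKM in DMSO normoxia, 92.3 in DMSO hypoxia, 106 in MLN4924 normoxia and 72.0 in MLN4924 hypoxia. Its mean was thus lower with MLN4924 at both oxygen levels, while the fall of Kctd11 with MLN4924 passed in hypoxia only. Other substrate genes averaged higher in DMSO hypoxia than in DMSO normoxia, such as Eif4ebp1 at 86.8 against 39.8 FPKM and Rhoa at 345 against 256. A link between adaptor and substrate RNA was not tested. As a check of the treatments, all 8 oxygen response genes rose with hypoxia in DMSO and all 8 in MLN4924, with the lower levels under MLN4924 given beside Kctd11, and all 8 NRF2 response genes rose with MLN4924 in normoxia and all 8 in hypoxia.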

How the data were processed

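Paired-end RNA sequencing covered 12 GC-2 libraries, 3 in each of 4 groups taken from the sample titles, and all value columns were used. The deposited values are FPKM per gene symbol, made, per the submitters' processing notes, with RSEM 1.3.3, STAR, fastp and build mm39. The annotation, strandedness and depth are not given in the sources used here, so no counting interval is given. A further label numbers the cell line upward over the samples, and all were taken as GC-2.

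The 12311 genes at 1 FPKM or more in at least 3 libraries were fitted as log2(FPKM + 1) in limma 3.58.1 (R 4.3.3), using 1 mean for each group, shared spread and an intensity trend. Changes on this scale understate those of low genes. Two-sided p-values were adjusted after Benjamini and Hochberg across all tested genes, with 0.05 as threshold. An exact permutation test of 3 against 3 cannot go below p = 0.1. The procedure was tested on simulated data. Alternatives were pseudocounts of 0.1 and 0.5, no filter, a filter of 6 libraries, rescaling to 1 total, median-of-ratios scaling, no trend, a fit of the 6 libraries compared, a replicate block, and leaving out each library.

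Members and lists were chosen with earlier results of these data known. Values are given for the called members with the largest changes (up to 6 in each direction and comparison), the 5 highest members and fixed paralog pairs. Spopl and other pair members are named through those pairs. Transcript lengths and exon overlaps came from GENCODE M21, an older build than that of the files, matched by symbol.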

Additional observations from a re-analysis of the deposited data

Results flagged for a closer look

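The hypoxia response of Kctd11 differed between MLN4924 and DMSO by -0.74 on the log2 scale, by the test of the difference in limma (adjusted p = 0.00659). It was higher in hypoxia in all 3 libraries of each treatment.

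In genes too low to be tested, signal appeared where all 3 DMSO normoxia libraries were listed at 0. Kbtbd11 averaged 0.177 FPKM in DMSO hypoxia (0.19, 0.12 and 0.22 FPKM). Kctd16, an auxiliary subunit of GABA-B receptors, averaged 0.277 FPKM in DMSO hypoxia (0.22, 0.30 and 0.31 FPKM) and 0.343 FPKM in MLN4924 hypoxia (0.52, 0.26 and 0.25 FPKM), and it was also listed at 0 in all MLN4924 normoxia libraries. These values were not tested. Without read counts it is unknown how many fragments they stand for.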

How the results depend on the processing

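No called result changed direction under any alternative. Over all 145 named changes, called or not, 70 of 3016 recomputed values had the opposite sign. These 70 came from 32 changes, and 58 of them arose with 1 library left out. All 70 belonged to changes called in neither setting, and none was larger than 0.19 in size. The members' median for hypoxia in DMSO went from 0.06 to -0.01 without DMSO hypoxia replicate 1. Of the 43 calls, 43 were kept with a filter of 6 libraries, 42 with a pseudocount of 0.5, 42 without the intensity trend, 41 with a pseudocount of 0.1, 41 with median-of-ratios scaling, 35 after rescaling, 28 without a filter and 28 in fits of the 6 libraries compared. Whether the replicate numbers pair the samples is not stated. Between libraries with the same number the correlations of deviations lay between -0.0697 and 0.0993, which cannot exclude pairing. A fit with the replicate block kept 33 calls. It gave 2 rising members for MLN4924 in normoxia, 1 rising and 5 falling for MLN4924 in hypoxia, and 3 falling for hypoxia in MLN4924. Over all genes it gave 983 rising for MLN4924 in normoxia, against 1149 as fitted. For MLN4924 in hypoxia 1337 rose and 1463 fell, against 1498 and 1639. For hypoxia in MLN4924 1861 fell, against 2034. The block left 56 genes with a higher interaction, against 118.

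Counts of members that moved by over 1.5 times in the fit of 6 libraries were 4 rising with hypoxia in DMSO, 6 falling with MLN4924 in normoxia, and 0 rising and 4 falling with MLN4924 in hypoxia. Over all genes that fit gave 944 rising and 1280 falling for hypoxia in DMSO, 1928 and 2140 for MLN4924 in normoxia, and 621 and 643 for MLN4924 in hypoxia. Without a filter they were 2 rising with MLN4924 in normoxia, 1 rising and 5 falling with MLN4924 in hypoxia, and 5 rising and 3 falling with hypoxia in MLN4924. A pseudocount of 0.1 gave 1 rising with MLN4924 in hypoxia, and both rescalings gave 3 falling with hypoxia in MLN4924. Over all genes the rescalings gave 1863 and 1687 falling there, against 2034 as fitted. Counts over all genes are not given here without a filter or with that pseudocount. The cause was not tested.

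Leaving out 1 library gave 6 to 11 rising and 2 to 5 falling members for hypoxia in DMSO, 1 to 5 and 1 to 6 for MLN4924 in normoxia, 1 to 4 and 4 to 8 for MLN4924 in hypoxia, 5 to 10 and 2 to 6 for hypoxia in MLN4924, and 16 to 24 for any difference. Over all genes it gave 1278 to 1837 rising and 1739 to 2948 falling for hypoxia in DMSO. For MLN4924 it gave 773 to 1975 rising and 875 to 2240 falling in normoxia, and 1047 to 2066 and 1098 to 1927 in hypoxia. For hypoxia in MLN4924 the ranges were 1062 to 2199 and 1461 to 3043, and for any difference 5733 to 7818. The interaction was higher for 42 to 406 genes and lower for 48 to 272. Depth is unknown, and members near 1 FPKM are the least certain.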
